A study of Drosophila melanogaster with 2 samples.

Results

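Of the 4309 peaks of D19B on the dm6 genome build, 1217 had their summit in an intron close to a gene start, which is 28.2% of the list (exact 95% interval 26.9 to 29.6%). A peak was counted here when its summit lay more than 500 bp and at most 5000 bp from the nearest annotated transcription start site (TSS), inside a gene and in no exon of any transcript. These are called near-start intronic peaks below, and position alone chose them from the list, with no further use of their height or sequence. The list itself was limited by height, since its 4309 peaks were the 4309 of highest signal among the regions called jointly from both libraries. The remaining peaks comprised 1923 TSS-proximal peaks within 500 bp of a TSS, 436 deep intronic peaks over 5000 bp away, 610 intergenic peaks and 123 exonic peaks. The data came from chromatin immunoprecipitation with sequencing (ChIP-seq) on whole Drosophila melanogaster embryos of 0 to 24 h and mixed sex. The single group was 1 transgenic line stably expressing D19B fused at its C terminus to green fluorescent protein (GFP), precipitated with an antibody against GFP and represented by 2 libraries, biological replicates 2 and 3. Both libraries carried the same tagged transgene, and the control library behind the peak calls was not analysed here. The age range covers all of embryogenesis, and whole embryos mix cell types, so a peak cannot be placed in a tissue or stage.

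D19B is a zinc-finger protein, a class in which tandem zinc fingers each read a few neighbouring bases of DNA, so that a protein with several fingers can recognise a long or a divided site. ChIP-seq recovers the DNA fragments bound by a tagged protein, and the summit of a peak is the base where the recovered fragments pile up most. Introns near a gene start, and above all the intron next to the start, hold many of the enhancers and alternative promoters of fly genes.

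The word ACAGGGTA had been picked out earlier on these same peaks. It was held by 53 near-start intronic peaks, on either strand, within 50 bp of the summit. Windows of the same size centred 500 bp away held it in 0 of 1217 cases, which allows a share of up to 0.247%. Among the tallest of these peaks, 6 are shown to let the word be seen in place. They are given as the plus strand of the reference, 50 bp on each side of the summit, with the word or its reverse complement in capitals.
bol, chr3L:9129275-9129375: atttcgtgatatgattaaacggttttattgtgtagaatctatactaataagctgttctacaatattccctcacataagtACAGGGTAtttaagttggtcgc
dsx, chr3R:7964815-7964915: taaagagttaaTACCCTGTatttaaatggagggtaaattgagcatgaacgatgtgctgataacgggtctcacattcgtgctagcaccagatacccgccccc
CG6330, chr3R:26952617-26952717: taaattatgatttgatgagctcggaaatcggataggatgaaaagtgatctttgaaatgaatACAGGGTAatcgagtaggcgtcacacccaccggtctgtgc
CAH2, chr3L:12178984-12179084: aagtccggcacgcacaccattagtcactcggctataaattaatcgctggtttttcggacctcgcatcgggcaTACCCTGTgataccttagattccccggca
unk, chr3R:23156651-23156751: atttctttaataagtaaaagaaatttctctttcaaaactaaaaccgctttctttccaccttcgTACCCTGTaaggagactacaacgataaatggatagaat
CG12054, chr3R:31224133-31224233: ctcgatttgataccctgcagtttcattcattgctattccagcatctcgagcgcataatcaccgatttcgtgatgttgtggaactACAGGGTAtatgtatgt

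In these 6 windows the word stood at 14 to 37 bp from the summit, on the left in dsx and on the right in the other five. The hosts of the windows were bol, the fly Boule gene for an RNA-binding protein of meiosis, dsx, the doublesex transcription factor gene of sex determination, CAH2, a carbonic anhydrase gene, unk, the unkempt gene, and the genes CG6330 and CG12054. The signal of the bol peak, the authors' value, read here as its height, was 958.3 when the libraries were called jointly, 523.2 in replicate 2 and 440.1 in replicate 3. The dsx peak had a signal of 934.3, with 687.9 in replicate 2 and 248.5 in replicate 3. All 6 peaks were higher in replicate 2, which the comparison of the libraries below shows for most near-start intronic peaks.

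The tallest near-start intronic peaks did not hold that word within 50 bp of the summit. Several held its 5-base core, GGGTA, further out on each side of the summit. The windows below show the 3 tallest, 120 bp on each side of the summit on the plus strand, with GGGTA or its reverse complement TACCC in capitals.
ush, chr2L:480961-481201: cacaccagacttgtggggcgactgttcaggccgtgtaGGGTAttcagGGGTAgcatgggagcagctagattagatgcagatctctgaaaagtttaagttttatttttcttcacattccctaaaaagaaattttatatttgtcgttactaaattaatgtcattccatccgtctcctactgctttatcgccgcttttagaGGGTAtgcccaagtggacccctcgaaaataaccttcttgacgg
CG9837, chr3R:8811557-8811797: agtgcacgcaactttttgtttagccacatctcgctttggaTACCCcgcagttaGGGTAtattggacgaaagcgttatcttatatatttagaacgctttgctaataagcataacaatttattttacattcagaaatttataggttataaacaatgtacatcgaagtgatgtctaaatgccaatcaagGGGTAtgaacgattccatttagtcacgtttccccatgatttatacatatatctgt
mub, chr3L:21880359-21880599: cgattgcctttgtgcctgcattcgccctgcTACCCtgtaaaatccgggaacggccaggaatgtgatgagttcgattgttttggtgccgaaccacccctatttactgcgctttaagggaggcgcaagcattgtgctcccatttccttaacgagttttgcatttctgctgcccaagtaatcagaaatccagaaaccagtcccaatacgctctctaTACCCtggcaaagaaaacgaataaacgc

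Within 120 bp the ush peak had core words 81 and 71 bp to the left of the summit and 80 bp to the right. The CG9837 peak had them 78 and 65 bp to the left and 68 bp to the right, and the mub peak 88 bp to the left and 95 bp to the right. The left copy in mub was part of TACCCTGT, the reverse complement of ACAGGGTA. The mub window thus held the full word, though further than 50 bp from the summit. In each of the 3 windows the summit itself thus lay in a stretch without the core, between copies of it.

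A second arrangement joined the core to another word. In 35 near-start intronic peaks the 6 bases CGACTA were followed, after exactly 5 bases of any kind, by TACCC within 150 bp of the summit. Among the tallest, 6 are printed on the strand that reads CGACTA, with 16 bases on each side and both words in capitals.
Moe, chrX:8896324-8896371, minus strand: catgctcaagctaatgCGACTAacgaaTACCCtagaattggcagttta
CG14696, chr3R:10884134-10884181, plus strand: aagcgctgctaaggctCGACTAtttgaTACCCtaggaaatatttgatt
CG9981, chrX:16404148-16404195, plus strand: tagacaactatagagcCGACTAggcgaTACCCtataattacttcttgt
CG33298, chr2L:9498215-9498262, plus strand: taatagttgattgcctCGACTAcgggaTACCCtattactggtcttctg
Doa, chr3R:28911878-28911925, plus strand: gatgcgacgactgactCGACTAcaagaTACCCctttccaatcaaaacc
raw, chr2L:8738284-8738331, plus strand: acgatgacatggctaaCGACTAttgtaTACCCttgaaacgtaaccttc

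The bases between the words varied. Over the 35 peaks there were 25 different spacers, the commonest in 5 peaks. No 2 of the 35 windows of 48 bases were identical, and the peaks lay in 35 different hosts. At least 1 base of the pair was lower case (a repeat mask) in the reference assembly in 10 of the 35.

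The spacing was far from even. When every distance from 0 to 30 bases between CGACTA and TACCC was counted, 42 near-start intronic peaks had the words in that order within 150 bp of the summit, and 35 of them, 83.3%, had a distance of 5. In the windows 500 bp away 4 peaks had the words within 30 bases and 0 had them at 5. The same distance led in the other classes, with 31 of 36 TSS-proximal, 20 of 23 deep intronic and 29 of 31 intergenic peaks, against 2, 1 and 2 at the flanks. The pair was noticed in these windows, so the counts are a description and were not tested. Its share was 2.88% of near-start intronic, 1.61% of TSS-proximal, 4.59% of deep intronic and 4.75% of intergenic peaks.

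**Figure D1:**
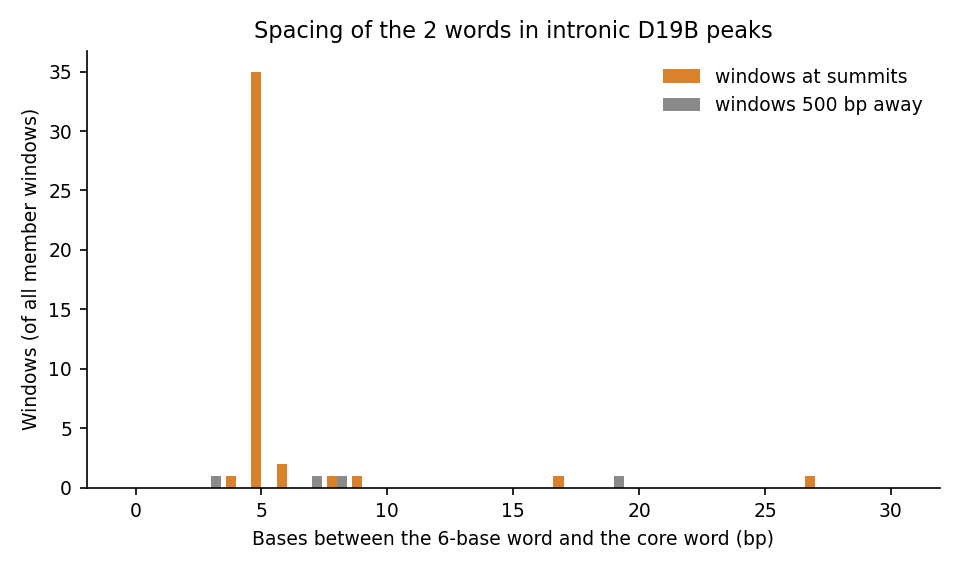
Number of the 1217 near-start intronic peaks (y axis) whose window of 150 bp on each side holds the 6-base word followed by the 5-base core word at each distance in bases (x axis), at summits (orange) and in windows 500 bp away (grey). A distance of 5 bases holds 35 summit windows and 0 flank windows, and no other distance exceeds 2.

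Replicate 2 alone gave 32 near-start intronic peaks with the pair and replicate 3 alone 43, each from as many of its highest regions. Peaks with the pair had signals from 119.4 to 3582.7 with a median of 212.6, and 33 of the 35 had a summit in both libraries. Of the 35, 21 were among the taller 608 of the 1217 members. The pair lay within 50 bp of the summit in 18 peaks, and 1 of the 35 also held ACAGGGTA there. The tallest printed example lay in Moe, the gene of moesin, which links actin to the membrane, 1733 bp from its TSS. It had a signal of 1629.8, with 967.6 in replicate 2 and 666.5 in replicate 3. The Doa peak, in the gene of a LAMMER protein kinase, had a signal of 737.5, with 404.7 and 349.8. In the raw gene, which encodes a regulator of dorsal closure, the peak had a signal of 307.1, with 201.7 and 108.2.

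Around the core, further bases were shared. Among 186 copies of AGGGTA near the summits of near-start intronic peaks, the base after the core was T in 73.1%. Before the A, C was the commonest base with 45.2%, preceded by A in 55.4%, T in 57.0% and T in 39.8%. Read together, these bases spell ACAGGGTAT with a pair of T in front, and after them no base exceeded 34.9%. The A and the core were fixed by the choice of these copies. No background was taken for the other positions, and the median G+C content within 50 bp of the summits was 32.7%. The outermost T, with 39.8%, stood little above 34.9%.

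Words and named motifs were compared between the window of 50 bp on each side of the summit and the window 500 bp away in the same peak, by two-sided exact sign tests over peaks with Benjamini-Hochberg adjustment over all words, or all motifs, of the 4 classes. The lead result was for CAGGGTAT, in 60 summit windows against 0 flank windows (exact sign test, adjusted p = 5.1e-15). ACAGGGTA followed with 53 against 0 (exact sign test, adjusted p = 4.4e-13), TACAGGGT with 44 against 0 and AGGGTATC with 42 against 0. CTCGACTA, which contains the CGACTA of the pair, was in 21 summit windows against 1 (exact sign test, adjusted p = 3.3e-04). Because ACAGGGTA was picked out earlier on these same peaks, its count is not independent evidence, nor are those of the words that overlap it.

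Of 1808 words of 8 bases tested in near-start intronic peaks, 194 were higher and 42 lower at the summits. Over the 5919 tests of the 4 classes, 14.1% were called higher and 2.30% lower. Most of the higher words had few G or C bases, 82 having none and 82 having 1. Of the 18 higher words with 3 or more G or C, 14 held GGGT or its reverse complement. The shorter core itself was in 293 summit windows, or 24.1%, and in 91 flank windows, or 7.48%. With a T added, GGGTAT was in 200 against 35 windows.

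Of the 20 named motifs, 3 were higher and 4 lower at the summits of near-start intronic peaks. Over the 80 motif tests of the 4 classes, 16.2% were called higher and 17.5% lower. TATAAA, the TATA box word, was in 291 summit windows against 136 (exact sign test, adjusted p = 3.3e-14). TAATTA, a core that many homeodomain proteins bind, was in 122 against 81 (exact sign test, adjusted p = 0.013), a difference that did not pass the test in replicate 3 alone, with TSSs of coding genes alone or with other flanks. The 4 lower motifs were each at least 50% G and C. GAGAG, which the GAGA factor binds, was in 104 summit windows against 194 (exact sign test, adjusted p = 4.1e-07), and the CA repeat CACACACA in 7 against 60 (adjusted p = 9.9e-11). The repeat GCAGCAGC was in 3 against 20 and the E-box CAGCTG in 29 against 64, and these 2 calls were lost in some of the alternatives.

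Sites of other well-known embryonic regulators gave no call. The GATA factor word AGATAAG was in 19 windows of each kind. The Zelda word CAGGTAG, which marks early embryonic enhancers, was in 5 summit windows against 9 (exact sign test, adjusted p = 0.73). TATCGATA, the site word shared by the insulator protein BEAF-32 and the replication-related factor DREF, was in 5 against 2 (exact sign test, adjusted p = 0.75), and its core CGATA was in 143 against 142. At the low counts of the first 3 of these words a moderate difference was not detectable.

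Base composition moved with these words. The median G+C content was 32.7% within 50 bp of the summits and 41.6% in the flank windows, and it was lower at the summit in 73.8% of near-start intronic peaks (exact sign test, adjusted p = 1.8e-71). The dip was of the same kind in TSS-proximal peaks, with 32.7% against 44.6%, and in deep intronic peaks, with 33.7% against 41.6%. Flank windows overlapped an exon in 17.1% of the near-start intronic peaks, which the flanks placed inside introns avoid. The part of base composition in the counts of A and T rich words was not tested. Nor was its part in the counts of the words with GGGT tested.

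ACAGGGTA was more frequent in near-start intronic peaks than at gene starts. It was within 50 bp of the summit in 4.35% of near-start intronic and 1.56% of TSS-proximal peaks (two-sided Fisher's exact test, adjusted over 3 comparisons, p = 9.9e-06). The shares of 3.44% in deep intronic and 3.77% in intergenic peaks did not differ from that of near-start intronic peaks by that exact test (adjusted p = 0.62 in each). The word came from these same peaks, so these comparisons are not independent evidence. A related word behaved otherwise in the counts. ATGGGTAT was in 9 summit windows against 8 flank windows of near-start intronic peaks, in 12 against 0 of deep intronic and in 22 against 0 of intergenic peaks. The difference between those classes was not tested. Relative to the host gene, 25 of 49 single copies of ACAGGGTA lay on the gene's own strand, 51.0% (exact binomial test, p = 1.0).

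The core on both sides of the summit, seen above in ush, CG9837 and mub, occurred in 126 near-start intronic peaks within 150 bp, which is 10.4%. Windows 500 bp away had a core on each side of their centre in 16 peaks, or 1.31% (exact sign test, adjusted p = 8.6e-24). The ratio of summit to flank windows, 7.88, was 4.96 in replicate 2 alone, 6.04 in replicate 3 alone and 5.30 with TSSs of coding genes alone. This comparison was added after the tallest windows of these same peaks had been read, so its p-value is not independent evidence. Single core words were also more frequent at summits than in flanks, and the test does not separate the arrangement from that. The arrangement was in 5.67% of TSS-proximal, 15.6% of deep intronic and 16.7% of intergenic peaks. By height it was in 83 of the taller 608 members and in 43 of the lower 609, or 13.7 and 7.06%. Since the arrangement was noticed in the tallest peaks, these counts are a description with no test. Without the 15 tallest members the first was 77 of 593. In 5 groups of equal size by signal, from the tallest down, the shares were 19.8, 10.3, 9.43, 7.00 and 5.33%. ACAGGGTA within 50 bp of the summit was in 5.26% of the taller and 3.45% of the lower members.

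None of the 15 tallest members had GGGTA within 50 bp of the summit, 12 had it within 150 bp and 6 had it on both sides. In those 12 the nearest copy lay 53 to 106 bp away. Across the tallest 20% of members, 243 peaks, the density of core words was 3.59 per kb within 50 bp of the summit and 3.57 per kb at 51 to 125 bp. It then fell to 1.68 per kb at 126 to 250 bp and to 1.09 per kb at 251 to 500 bp. In the other 974 members the same zones held 2.72, 1.88, 1.36 and 0.943 core words per kb. Tall peaks therefore differed most from the others in the zone of 51 to 125 bp, as a count and not as a tested difference.

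**Figure D2:**
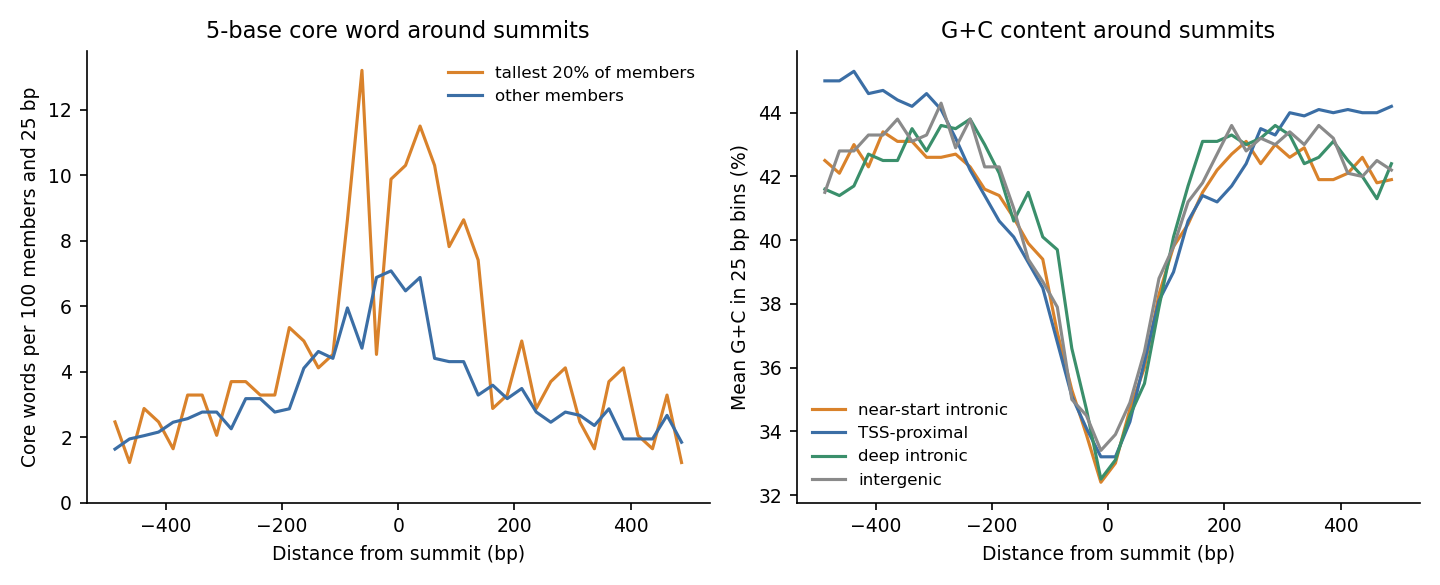
Left, core words per 100 members in bins of 25 bp (y axis) against the distance from the summit in bp (x axis), for the tallest 20% of near-start intronic peaks (orange) and the others (blue). Right, mean G+C content in percent in the same bins for the 4 classes. The orange line is high on both sides of the summit out to about 125 bp, and the 4 lines on the right share a dip centred on the summit.

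The height of near-start intronic peaks spanned a wide range. Their signal ran from 117.1 to 15866.3 with a median of 193.1, and the middle 50% lay between 144.6 and 310.9. Medians were 218.3 for TSS-proximal, 180.9 for deep intronic and 180.8 for intergenic peaks. In all, 47.2% of near-start intronic peaks stood above the median of the 4309 peaks, against 56.6% of TSS-proximal peaks (Fisher's exact test, adjusted p = 8.3e-07). This difference of −9.41 percentage points was −5.54 in replicate 2 alone and −13.1 in replicate 3 alone, past the test in each. By the same exact test the share was 43.1% for deep intronic peaks (adjusted p = 0.16), a difference that passed in replicate 3 alone at 9.07 points (adjusted p = 7.7e-04). It was 41.3% for intergenic peaks (same exact test, adjusted p = 0.029), and that call was lost in replicate 2 alone. Of the 100 tallest peaks of the list, 29 were near-start intronic, and of the 15 tallest, 6.

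Those 6 lay in ush, CG9837, mub, CG4297, cu and shn. The ush gene encodes a cofactor of GATA factors, and its peak had a signal of 15866.3, with 10239.8 in replicate 2 and 5652.5 in replicate 3. Its nearest TSS, 1393 bp away, belonged not to ush but to cbt, the cabut gene of a transcription factor. The CG9837 peak had a signal of 5568.5, with 3785.0 in replicate 2 and 1809.3 in replicate 3. The peak in mub, a gene for an RNA-binding protein with KH domains, had 3712.3, with 2324.2 and 1398.3. In CG4297 the values were 3675.8, 2571.2 and 1116.7. In each library ush stood highest and CG9837 next, whereas the order of the other four differed between the libraries.

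The cu gene, or curled, encodes the fly Nocturnin protein, and its peak stood close to the lower limit of the rule, 515 bp from the TSS. Its signal was 3592.2, with 2716.4 in replicate 2 and 899.7 in replicate 3. The shn gene encodes a large zinc-finger factor of Dpp signalling, and its tallest peak had 3582.7, with 2401.8 and 1199.2. The CG9328 peak had 3082.0, with 2165.5 and 930.0. Further down came br, a zinc-finger gene of the ecdysone response that shares its peak with Mur2B, at 2965.6, and Mekk1, a kinase gene of stress signalling, at 2743.6. The next were wech, a gene of muscle attachment, at 2253.5, Prps, a gene of nucleotide synthesis, at 2116.9, and CG11050 at 2067.7. Trl, which encodes the GAGA factor itself, had 1953.3, with 1231.8 and 729.1. The list closed with fru, a BTB zinc-finger gene of sexual behaviour, at 1852.8, and Tlk, the Tousled-like kinase gene, at 1706.6. For all 15 each library had a summit within 100 bp, and all 15 were higher in replicate 2.

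The 2 libraries found the same summits in most near-start intronic peaks. A summit lay within 100 bp in replicate 2 for 1187 peaks, in replicate 3 for 1119, in both for 1091 and in neither for 2. Presence in both, 89.6%, was more frequent than for TSS-proximal peaks, 83.3% (Fisher's exact test, adjusted p = 1.4e-06), a call that was lost with a limit of 50 bp. It did not differ by the exact test from deep intronic, 90.4%, or intergenic peaks, 89.8% (adjusted p = 0.94 in each). Among the 1091 peaks the median signal was 129.5 in replicate 2 and 71.2 in replicate 3, and 92.8% were higher in replicate 2. The median ratio of replicate 2 to replicate 3 was 1.91. These lists are not scaled to each other, so the ratio is no difference in binding. Across the 1091 peaks Spearman's correlation of the signals was 0.658 and Pearson's correlation of the log10 signals was 0.779, as a description over peaks of the same 2 libraries. The thresholded list was drawn from these lists, which the presence of its peaks in both reflects.

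**Figure D3:**
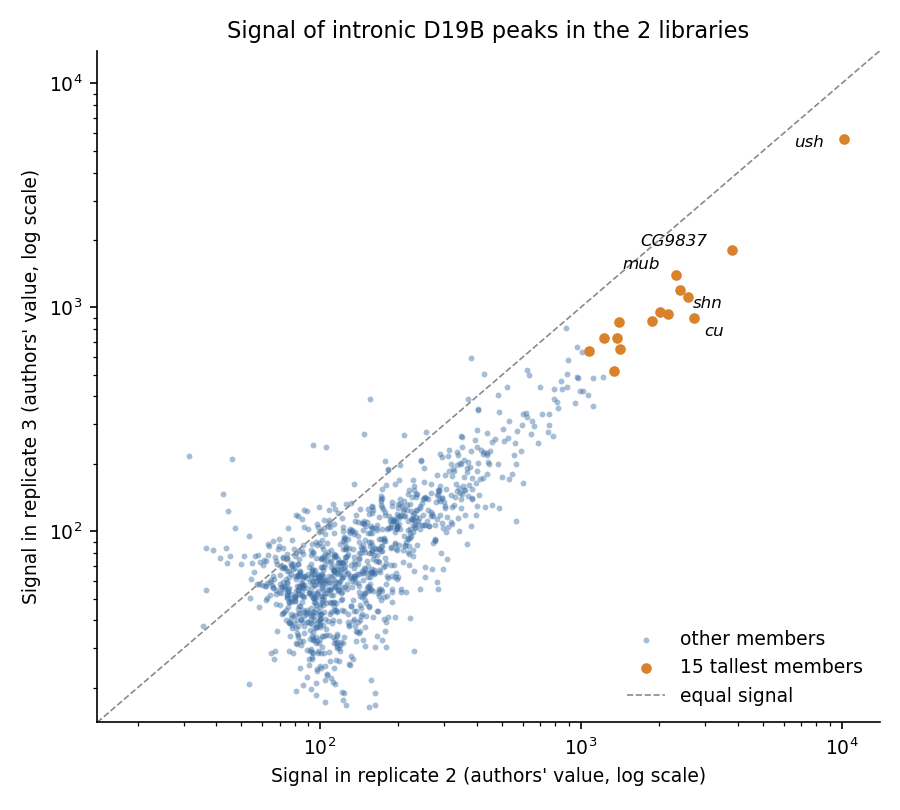
Signal of the 1091 near-start intronic peaks with a summit in both libraries, replicate 2 on the x axis and replicate 3 on the y axis, both as the authors' values on log scales; each point is 1 peak and the dashed line is equal signal. The 15 tallest members (orange) lie below the line, and ush stands apart at 10239.8 and 5652.5.

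Most near-start intronic peaks lay in the intron that follows a gene start. A first intron of at least 1 transcript held 948 of the 1217 summits, 77.9%, whereas first introns made up 57.4% of the intron sequence that satisfies the rule (ratio 1.36, exact 95% interval 1.31 to 1.40, exact binomial test, p = 8.3e-51). That sequence amounted to 24548.9 kb, or 18.3% of the chromosome arms. The density of summits was 67.3 per Mb in first introns and 25.7 per Mb in later introns, compared with 49.6 per Mb over both and 32.2 peaks per Mb over the whole arms. Since distance to a TSS and intron order go together, the share was also taken within bins of distance, a step added after the pooled value was known. From just over 500 to 1000 bp the density was 93.3 per Mb in first and 45.7 per Mb in later introns (exact binomial test, adjusted p = 8.7e-08). From just over 4000 to 5000 bp it was 45.6 and 20.2 per Mb (exact binomial test, adjusted p = 2.9e-05), and the other 3 bins passed the test in the same direction.

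The density fell with distance from the TSS. It was 78.7 per Mb up to 1000 bp, 58.3 per Mb from there to 2000 bp, 40.6 per Mb to 3000 bp, 30.6 per Mb to 4000 bp and 32.3 per Mb to 5000 bp. The last pair of bins had overlapping intervals of their ratios to the mean density, 0.521 to 0.725 and 0.541 to 0.776. Each of the 5 bins differed from the share of its bases by the exact binomial test, with ratios of 1.59 to 0.617. The median distance was 1588 bp. Summits just inside the lower limit were those in CycE at 503 bp with a signal of 437.2 and in Cp110 at 507 bp with 207.8, and just outside lay hng3 at 500 bp with 148.6 and prage at 496 bp with 517.7. At the upper limit shep at 4988 bp, with 253.9, and tara at 4981 bp, with 245.3, were inside, and GEFmeso at 5011 bp, with 171.0, and lilli at 5012 bp, with 365.6, were outside.

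**Figure D4:**
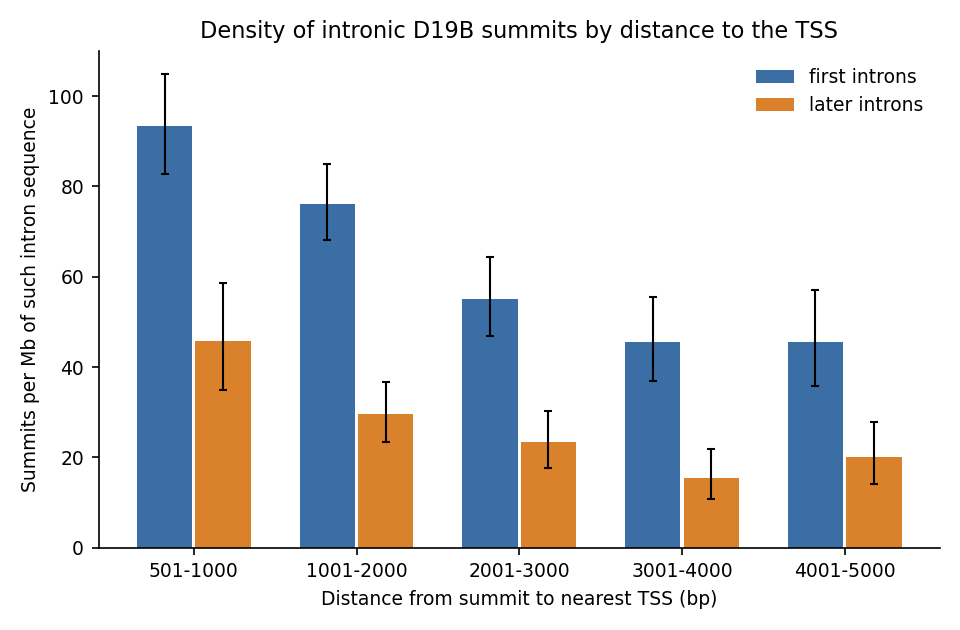
Summits of near-start intronic peaks per Mb of intron sequence that satisfies the rule (y axis) in 5 bins of distance to the nearest TSS in bp (x axis), for first introns (blue) and later introns (orange); bars are the observed densities and error bars exact 95% Poisson intervals, which cover counting error only. First introns lie above later introns in each bin, from 93.3 against 45.7 in the nearest to 45.6 against 20.2 in the farthest.

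The nearest TSS belonged to the gene around the summit in 966 peaks, 79.4%, against 65.5% of the bases that satisfy the rule (exact binomial test, p = 3.7e-26). This comparison was added after the data had been seen. Of these, 685 summits lay downstream of the TSS and 281 upstream of it, as an intron of a longer transcript allows. For the other 251 peaks the nearest TSS was that of a neighbouring or nested gene, with 92 summits downstream and 159 upstream of it. In total 63.8% of summits were downstream of their nearest TSS, against 65.5% of bases (exact binomial test, p = 0.23). The test was passed, with a lower share than the bases, in 3 of the alternatives.

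The introns were long. The shortest annotated intron around the summit had a median of 6576 bp, with the middle 50% between 3118 and 14342 bp and extremes of 59 and 121519 bp. The nearest exon lay a median of 882 bp from the summit. Neither length was taken for the bases that satisfy the rule, so they cannot be read as particular to the peaks. The region had the same width of 430 bp in 686 peaks, so width carries little information. Another summit of the list lay within 1000 bp of 337 of the peaks, 27.7%, and 26 had a region with the same start and end as that of another summit. Regions that overlapped with other limits, as in shn and CHES-1-like, were not looked for. The summit base was lower case in the reference assembly in 23.5% of the peaks, against 19.8% of the bases that satisfy the rule. How the authors placed reads from repeated sequence is not stated in the labels.

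Of the 6 arms 2 passed the test. Arm X held 282 near-start intronic peaks, 1.18 times its share of the bases (exact binomial test, adjusted p = 0.0093), and the small arm 4 held 4, or 0.255 times its share (adjusted p = 0.0051). Both calls were lost in the taller 574 members, and that on X also with TSSs of coding genes alone. CHES-1-like alone held 15 of the peaks on X, which the test counts as independent. The other 4 arms did not pass the test, with ratios from 0.928 to 0.997.

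The peaks fell in 818 genes, 8.58% of the 9533 genes with any sequence that satisfies the rule. Of the 818 hosts 795 were protein-coding and 23 were non-coding RNA genes, and 75 peaks lay inside more than 1 gene. A single peak was found in 553 hosts, 2 in 164 and 3 or more in the rest. A host's own start was often occupied too. A summit lay within 500 bp of a TSS in 287 hosts, or 35.1%, compared with 17.8% of the 9533 genes. Hosts had more such intron sequence, with a median of 6.09 kb against 0.450 kb. Among genes with under 1 kb of it the shares were 24.0% of hosts and 15.4% of the others, from 1 to 4 kb 36.7 and 17.3%, and from 4 kb up 35.5 and 18.3%.

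Some genes carried many peaks. CHES-1-like, a forkhead transcription factor gene on X, had 15 in 14.7 kb of such sequence, with signals from 124.9 to 802.9 and a median of 321.6, and none of them had the core on both sides. The shn gene had 13, with signals from 186.2 to 3582.7, and 2 of these had the core on both sides. CG1677 and the overlapping non-coding RNA gene lncRNA:CR44357 shared the same 10 peaks, with signals up to 510.3. The ush gene had 8, from 128.0 to 15866.3 with a median of 242.4, so its tallest peak stood far above the rest. Tlk, Moe and CG5151 had 7 each.

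The host genes were then read against 12 lists of genes of development, signalling and cell function, chosen with earlier results of these peaks known. Each list is given as its hosts among the members with such intron sequence, beside the 8.58% of all genes, and no list was tested. A host is the gene around the summit. For the tallest peaks in dally, InR, mam, ptc, pum and others below, the nearest TSS belonged to another gene. The listed genes have longer introns than most genes, so the density of peaks, 49.6 per Mb over all the sequence, is given as well. By genes, all 12 lists lay above 8.58%. Among all genes the share of hosts was 12.6% with 1 to 4 kb of such sequence and 29.0% with 4 kb or more. At their median lengths the Wingless, axon guidance, ion channel and Notch lists lay below these shares. The RNA-binding list was close at 29.3%. The EGFR, developmental transcription factor and Hedgehog lists, at 32.3, 33.3 and 35.7%, lay above 29.0%, but by little for lists of 31, 63 and 14 genes. The Dpp and BMP list, with 6 of 20 genes, lay above 12.6%, but its median of 3.72 kb was just under the 4 kb limit. Beside 29.0% it would be close. The insulin, chromatin and circadian lists lay above 12.6%. By density 7 lists lay above 49.6 per Mb and were led by the circadian and metabolic list with 133.0 and the Dpp and BMP list with 128.1 per Mb. The latter rests on shn, which held 13 of its 21 peaks, and without shn its density was 61.8 per Mb. The density of the Notch list, 24.7 per Mb, was 10.4 per Mb without mam. For the other 10 lists leaving out the gene with most peaks moved the density by less than 1.5 times.

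**Figure D5:**
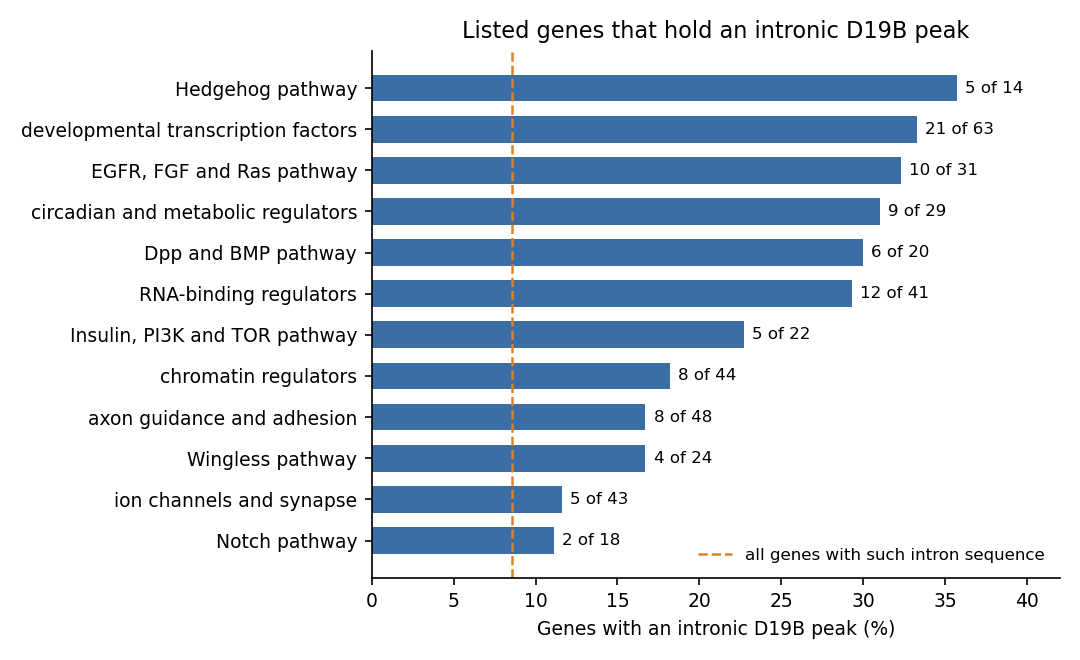
Percent of the genes of each list that hold a near-start intronic peak (x axis), of those with intron sequence that satisfies the rule; numbers beside the bars are hosts and genes, and the dashed line marks all 9533 genes at 8.58%. The bars run from 11.1% for the Notch list to 35.7% for the Hedgehog list. Among all genes with 4 kb or more of such sequence the share was 29.0%.

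Among ligands, receptors and modulators of the Dpp pathway, the fly branch of BMP signalling, 6 of 20 genes were hosts. They were shn, the receptor genes wit and put, dally, which encodes a glypican that shapes the Dpp gradient, sog, which encodes an extracellular antagonist, and Mad, the transducer. The wit peak had a signal of 1459.2, with 968.1 in replicate 2 and 490.3 in replicate 3, 1088 bp downstream of the wit TSS. That in dally had 830.8, with 486.0 and 341.3. The Mad peak was low in comparison at 130.5, with 82.0 and 56.7.

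In the EGFR, FGF and Ras list 10 of 31 genes were hosts, at 111.6 peaks per Mb. These hosts are given here by step of the pathway, and their share was not tested. At the level of ligands, S, or Star, which is needed to export the EGFR ligand Spitz, had a signal of 974.6, and unlike most peaks it was lower in replicate 2, at 380.0, than in replicate 3, at 595.0. The FGF ligand gene ths had 274.3. The receptor gene Egfr had 529.2, with 256.1 and 277.0, and the FGF receptor gene htl had 368.1, with 182.5 and 186.8. Inside the cell the adaptor gene drk had 394.7 and the kinase gene Raf 551.2, with 347.0 and 199.9. The transcription factors pnt, an activator, and aop, a repressor, had 328.3 and 209.6. Among inhibitors, aos had 326.3 and sty 261.7.

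Other signalling lists had fewer hosts by number. In the Hedgehog list 5 of 14 genes were hosts, namely dally, the transcription factor gene ci with 212.6, the receptor gene ptc with 211.1, dlp and rdx. In the Wingless list it was 4 of 24, among them the receptor genes fz2 with 325.9 and fz with 290.6. The nearest TSS belonged to another gene in the tallest peak of each of these 4 hosts. That peak in fz had no matching summit in replicate 3. In the Notch list 2 of 18 genes were hosts, the coactivator gene mam with 562.0 and the ubiquitin ligase gene neur with 365.0. In the insulin, PI3K and TOR list it was 5 of 22. These were led by the kinase gene Lk6 with 1394.7, at 888.0 and 505.2 in the libraries, and the insulin receptor gene InR with 1163.0, at 809.4 and 376.4.

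Developmental transcription factor genes were hosts in 21 of 63 cases, at 79.5 peaks per Mb. After ush, shn, br and fru came sd, the Scalloped partner of Yorkie, with 613.8, at 350.3 and 264.8 in the libraries, and kay, the fly Fos gene, with 512.7. The Hox gene Abd-B had 400.6 and the muscle regulator gene Mef2, with 5 peaks, had at most 362.7. At the low end stood srp, a GATA factor gene, with 120.5 and the nuclear receptor gene Hr3 with 118.0, close to the lowest signal of any member.

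Among circadian and metabolic regulators 9 of 29 were hosts. The nuclear receptor gene Hnf4 had 718.9, with 543.5 and 180.4, and the lipase gene bmm, with 4 peaks, at most 707.4, with 438.7 and 273.8. The clock genes Pdp1, with 6 peaks, and vri had at most 339.0 and 238.1. In the chromatin list 8 of 44 genes were hosts, and after Trl stood trx, the Trithorax methyltransferase gene, with 870.6, at 568.7 and 281.7. The remodeller gene Mi-2, which shares its peak with Su(Tpl), had 334.7. This peak was lower in replicate 2, at 94.4, than in replicate 3, at 241.7. Among RNA-binding regulators 12 of 41 were hosts, with mub and bol followed by pum, a translational repressor gene, with 544.7.

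Neural lists were at the other end by density. Axon guidance and adhesion genes had 8 hosts of 48 and 20.1 peaks per Mb, and ion channel and synapse genes 5 of 43 and 23.8 per Mb. Their tallest peaks apart from dally were in Fas3, a cell adhesion gene, with 377.1, and in KCNQ, a potassium channel gene, with 554.0, at 355.8 and 208.8.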

How the data were processed

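ChIP-seq of D19B-GFP was analysed from the authors' peak lists for 2 libraries, which are 1 group. Per the file records, the thresholded list was derived from the lists of each library and of both. The signal of a region is the authors' deposited value, whose definition is not stated and which is read here as the height of the peak, and the deposited −log10 q values were at least 2.88 in each peak. Of the aligner, peak caller, thresholds and read depth nothing is stated in the labels. Intervals cover counting error, and p-values measure the spread over peaks, which are not biological replicates. Tests count near-start intronic summits as independent, although 27.7% had another summit of the list within 1000 bp.

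Sequence came from the RefSeq copy of genome release 6, which is dm6, with 1-based positions, and genes from Ensembl release 115 (FlyBase 6.54), without transposable elements. Bases that satisfy the rule were counted in the same way as summits. Exact binomial, Fisher and sign tests used scipy 1.17.1 in Python 3.11.15, with Benjamini-Hochberg adjustment at 0.05. Words needed 20 windows. Tests were checked on simulated data. The genes named are the hosts of the 15 tallest members, of the members printed, and the tallest of each list, with others given by role. The members, lists and motifs were chosen with earlier results of these data known. Alternatives are listed at the end. A further gene list is not reported here.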

Additional observations from a re-analysis of the deposited data

How the results depend on the processing

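No paired analysis was possible because the libraries form 1 group. Over 36 results there were 215 alternatives, of which 173 were graded as the same. For tested results this grade meant that direction and call were kept. For results that are counts it allowed some change, such as 3 to 6 lower motifs where the main analysis gave 4. First-intron share, nearest TSS in the host, density by distance, the core on both sides and ACAGGGTA against flanks and TSS-proximal peaks were among those that kept direction and call throughout. With the taller 50% of peaks there were 574 members, 61.0% lay downstream (past the test), 0 arms passed, 20 members had the spaced pair, and 68 words were higher and 6 lower. With coding TSSs alone 64.6% lay downstream (past the test), 1 arm passed, and ACAGGGTA differed from deep intronic peaks by −0.0187 points. With 1 library, the downstream share was 62.5 to 63.9%, the share above the median differed from deep intronic peaks by 4.56 to 9.07 points (past the test in replicate 3 alone) and from intergenic peaks by 2.07 to 4.75, 27 to 38 words were lower, ACAGGGTA differed from intergenic peaks by −2.10 to 0.348 points, and 42.2 to 45.8% of copies lay on the host's strand. Presence in both libraries at 50 bp differed by 3.91 points from TSS-proximal (no longer past the test), 1.27 from deep intronic and 4.44 from intergenic peaks; the last was 0.117 with 1 summit per region, 0.625 in the taller 50% and 0.317 at 250 bp. Flanks 1000 bp away gave 98 higher and 23 lower words, flanks inside introns 95 and 26, and windows of 100 bp on each side 347 and 126. In those wider windows ACAGGGTA differed from intergenic peaks by −0.967 points and 44.9% of copies lay on the host's strand. The causes were not tested. Depth is unknown, so low signals cannot be told from shallow sequencing.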

Other observations

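In 387 near-start intronic peaks no base within 50 bp of the summit was lower case in the reference assembly, and 28 of these held ACAGGGTA. Of 54 copies of ACAGGGTA within 50 bp of a summit 3 had a lower-case base, of 347 copies of GGGTA 33, and of 21 copies of CTCGACTA 7.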
